A study of Mus musculus with 9 samples.

Results

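The 10 genes described here encode tumour necrosis factor (Tnf), its receptors Tnfrsf1a and Tnfrsf1b, the related receptor Cd40, the receptor adaptors Traf1 and Traf2, the ubiquitin ligase Birc3, and Tnfaip2, Tnfaip3 and Tnip1, which respond to or restrain the pathway. They were chosen by gene symbol and are 10 of the 24532 genes of the table. Polyadenylated RNA was sequenced from neutrophils of wild-type C57BL/6 mice, sorted by flow cytometry from bone marrow, blood and lung, with 3 biological replicates per tissue and 9 libraries in all. No group was treated, and all groups share the wild-type genotype. The age of the mice, the sort gates, the way the lungs were dispersed and whether animals were pooled are unknown from the sources used here.

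Tumour necrosis factor is made as a membrane protein and shed as a soluble cytokine. Tnfrsf1a, present on most cells, carries a death domain and can lead to NF-kB activation or to cell death. Tnfrsf1b lacks a death domain, binds Traf2 directly and is found mainly on blood and endothelial cells. Traf2 brings the ligases Birc2 and Birc3 to the receptors, and the ubiquitin chains they build are read by kinases that activate NF-kB. Several products of this pathway feed back on it: Tnfaip3 edits and removes ubiquitin chains, and Tnip1 binds such chains and Tnfaip3. Neutrophils both secrete TNF and respond to it, and they are made in the marrow, released to the blood and held in large numbers in the vessels of the lung.

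Levels are given as CPM, the reads of a gene as a share of its library's reads, with TMM scaling between libraries, and differences as log2 fold changes with a standard error (SE). A gene is said to have risen or fallen where its p-value from edgeR's quasi-likelihood test, adjusted over the 13510 genes tested, was under 0.05. Library totals ran from 42045548 to 56796219 reads, so that 3 reads, taken as the floor of detection, correspond to 0.0528 to 0.0714 CPM, and all 10 genes passed the filter on low counts. All 12 neutrophil markers on the list were detected in every library. Their summed level was 90751 to 130425 CPM in marrow, 31445 to 45309 in blood and 35170 to 64229 in lung. Single neutrophil markers went both ways. From marrow to blood 1 rose and 6 fell, where 21.4% of all genes passed, and from blood to lung 4 rose and 1 fell (28.9%). From marrow to lung 3 rose and 7 fell (38.2%). Ly6g was at 418 to 678 CPM in marrow and 15.4 to 27.0 in blood and lung, and Hdc at 1505 to 2215 in marrow and 5905 to 10975 in lung. Replicate 3 of each tissue stood apart from replicates 1 and 2 in markers of other cell types. Erythroid markers summed to 8547, 9360 and 1719 CPM in marrow, 8810, 6114 and 822 in blood and 428, 342 and 32.8 in lung, and fibroblast markers to 41.1, 43.5 and 161 in marrow. Results are therefore also given from a fit without replicate 3 of every tissue, an alternative chosen after seeing the data.

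The stretch of genome just upstream of each gene is shown first for the 3 genes that differed most between tissues, and then for Tnfaip3 and Tnip1, whose windows hold the NF-kB decamer, the consensus to which NF-kB dimers bind. Each sequence is the 250 bases before the start of the transcript in the table, 5′ to 3′ on the strand of the gene, from RefSeq on GRCm38.p6, with a match to the decamer in capitals. Tnfrsf1b lies at chr4:145246871-145247120 on the minus strand, Traf1 at chr2:34961773-34962022 on the minus strand, and Birc3 at chr9:7873171-7873420 on the minus strand.
Tnfrsf1b: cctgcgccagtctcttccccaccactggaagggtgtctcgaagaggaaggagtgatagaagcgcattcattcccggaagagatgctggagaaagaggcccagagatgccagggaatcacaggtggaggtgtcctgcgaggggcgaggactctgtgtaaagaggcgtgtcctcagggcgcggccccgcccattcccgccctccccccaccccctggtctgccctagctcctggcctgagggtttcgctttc
Traf1: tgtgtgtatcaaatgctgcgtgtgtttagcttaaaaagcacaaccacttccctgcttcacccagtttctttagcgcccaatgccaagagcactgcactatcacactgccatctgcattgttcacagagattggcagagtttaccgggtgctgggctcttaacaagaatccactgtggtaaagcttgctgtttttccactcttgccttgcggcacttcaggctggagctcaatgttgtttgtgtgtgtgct
Birc3: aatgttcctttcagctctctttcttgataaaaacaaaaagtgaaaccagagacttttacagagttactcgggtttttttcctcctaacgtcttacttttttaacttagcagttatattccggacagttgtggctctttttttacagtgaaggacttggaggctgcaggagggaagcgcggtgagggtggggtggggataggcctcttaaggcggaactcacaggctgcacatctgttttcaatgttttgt
The window of Tnfaip3 lies at chr10:19015411-19015660 and that of Tnip1 at chr11:54962941-54963190, both on the minus strand.
Tnfaip3: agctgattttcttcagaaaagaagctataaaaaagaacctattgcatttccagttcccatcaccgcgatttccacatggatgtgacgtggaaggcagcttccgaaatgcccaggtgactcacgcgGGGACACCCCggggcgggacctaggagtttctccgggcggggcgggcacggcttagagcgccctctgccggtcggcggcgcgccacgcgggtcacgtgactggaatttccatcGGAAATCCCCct
Tnip1: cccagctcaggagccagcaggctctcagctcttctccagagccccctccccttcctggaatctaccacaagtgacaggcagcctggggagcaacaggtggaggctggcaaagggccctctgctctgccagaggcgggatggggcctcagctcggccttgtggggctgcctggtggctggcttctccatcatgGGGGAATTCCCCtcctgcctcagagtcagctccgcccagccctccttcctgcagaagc
Tnfaip3 holds the decamer at 2 positions, starting 125 and 12 bases before the start. Tnip1 holds 3 overlapping matches, which begin 58, 57 and 56 bases before the start, and Tnfaip2 (window at chr12:111442411-111442660, plus strand) holds 1 match at 24 bases. The RefSeq gene span reaches 211 bases further upstream than this start for Tnfaip2, so that its match lies within the span, and 40 bases for Traf1, 35 for Birc3 and 16 for Tnip1. The first Tnfaip3 match and the middle Tnip1 match read as the decamer on both strands. Windows were found for 9 of the 10 genes, all but Cd40, and 3 of their 10 windows hold the decamer on either strand, as do 7.25% of 32841 promoter windows of the same length. Tnfaip3 has a second start, whose window holds no match. The windows of Tnfrsf1b, Traf1 and Birc3, printed above, hold no such letters. A match describes the sequence and was not tied to binding of any factor.

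Of the 10 genes, Tnfrsf1b, Traf1 and Birc3 rose in lung neutrophils against both other tissues, Tnfaip2 rose in blood and lung against marrow, Tnfaip3 rose in lung against blood, and Traf2 fell in lung against both. Tnf, Tnfrsf1a, Tnip1 and Cd40 passed the test in no comparison. From marrow to blood 1 of the 10 rose and 0 fell. Of all genes tested, 21.4% passed in this comparison, 8.34% higher and 13.1% lower in blood. From blood to lung 4 of the 10 rose and 1 fell, where 28.9% of all genes passed, 13.2% higher and 15.7% lower in lung. From marrow to lung 4 of the 10 rose and 1 fell, where 38.2% of all genes passed, 15.6% higher and 22.6% lower in lung. The 10 genes had a median log2 difference of 0.04, 0.82 and 1.48 in the same order, and all genes tested had -0.05, 0.05 and 0.06. The libraries of the 2 tissues did not overlap for 3 of the 10 genes between marrow and blood, where 45.4% of all genes did not overlap, for 7 between blood and lung, against 41.6%, and for 5 between marrow and lung, against 49.0%. Any 2 of these comparisons share the libraries of 1 tissue, so their values are not independent of each other.

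**Figure D1:**
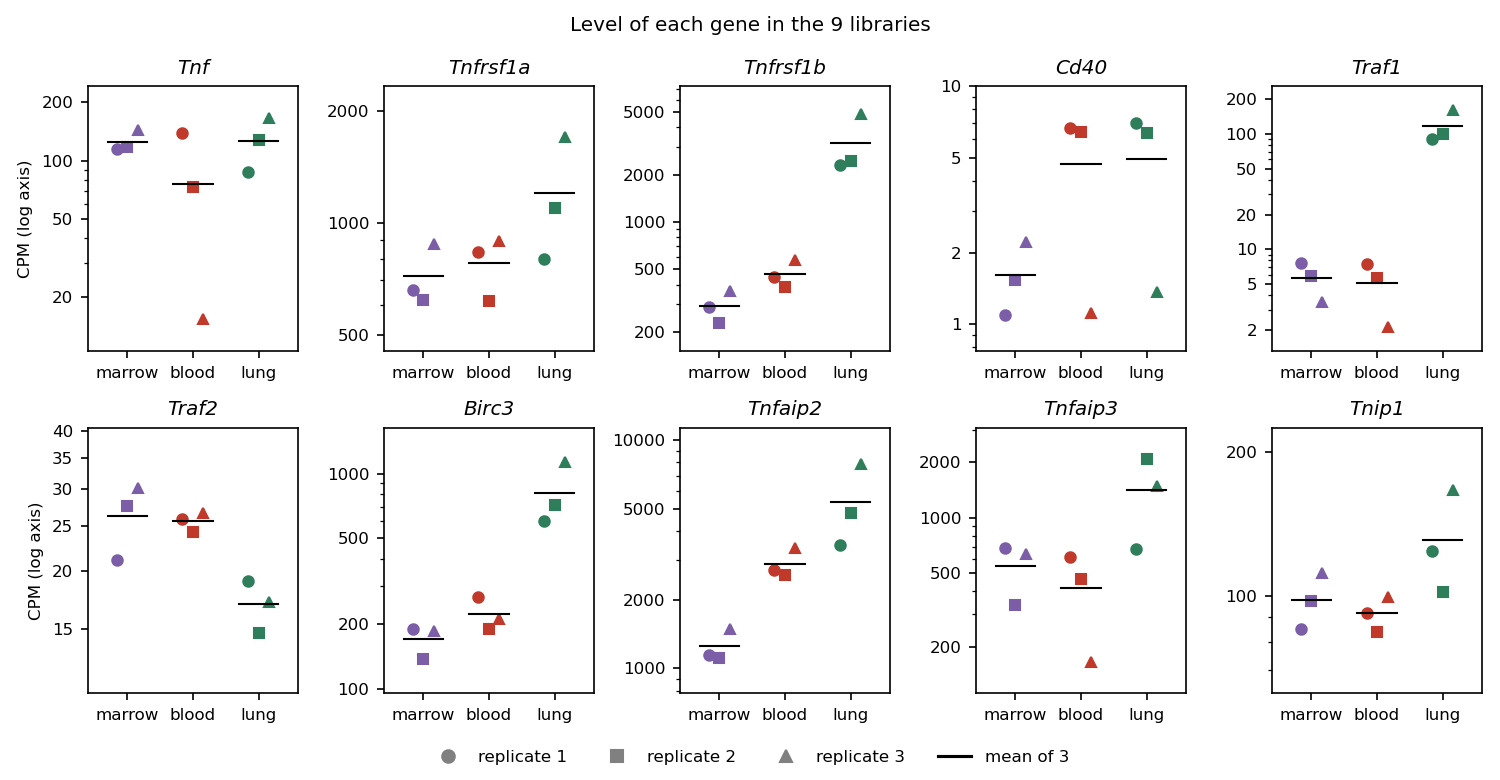
Level of each of the 10 genes in CPM (log axis) in the 3 libraries of each tissue, with the mean as a line and 1 marker shape per replicate number. The 3 lung libraries lie above all 6 others for Tnfrsf1b, Traf1 and Birc3 and below all 6 others for Traf2, while blood replicate 3 lies lowest for Tnf, Tnfaip3 and Traf1.

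Tnf (Entrez 21926, chr17:35199367-35202007), the ligand, was present in all 9 libraries. It measured 115, 118 and 144 CPM in marrow, 139, 73.0 and 15.4 in blood and 87.5, 128 and 165 in lung. The 3 blood libraries spread over a wider range than those of marrow or lung, and the ranges of all 3 tissues overlapped. The mean was 125 ± 15.9 CPM (SD, n = 3) in marrow, 75.9 ± 62.1 in blood and 127 ± 38.9 in lung. The log2 differences were -0.72 (SE 0.61, adjusted p = 0.453) for blood against marrow, 0.74 (SE 0.61, adjusted p = 0.412) for lung against blood and 0.02 (SE 0.61, adjusted p = 0.985) for lung against marrow. Without blood replicate 3, blood against marrow was -0.18 (adjusted p = 0.817) and lung against blood 0.30. In these bulk libraries a smaller share of cells with a transcript and less transcript per cell cannot be told apart.

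Tnfrsf1a (Entrez 21937, chr6:125349723-125362483), the receptor with a death domain, was abundant in every library. It measured 658, 621 and 877 CPM in marrow, 832, 617 and 894 in blood and 797, 1098 and 1704 in lung. The highest value was in lung, but the lowest lung library lay below the highest of marrow and of blood. Lung against blood gave 0.62 (SE 0.30, adjusted p = 0.162) and lung against marrow 0.74 (SE 0.30, adjusted p = 0.0838), neither past the threshold. With the replicate number as a block, lung against marrow was 0.71 with an adjusted p of 0.029. Lung against blood was 0.35 (adjusted p = 0.237) and lung against marrow 0.54 (adjusted p = 0.073) without replicate 3 of every tissue.

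Tnfrsf1b (Entrez 21938, chr4:145212368-145246870), the receptor without a death domain, rose in lung. It measured 290, 228 and 365 CPM in marrow, 448, 388 and 572 in blood and 2318, 2442 and 4829 in lung. Every lung library was above every other library, and the lowest blood library was above the highest of marrow. The mean in lung was 6.82 times that in blood (log2 2.77, SE 0.35, adjusted p = 9.55e-04) and 10.9 times that in marrow (log2 3.44, SE 0.36, adjusted p = 1.59e-04). Blood against marrow was 0.67 (SE 0.33, adjusted p = 0.189), and with the replicate block 0.68 with an adjusted p of 0.027. Without replicate 3 of every tissue it was 0.70 (adjusted p = 0.0265).

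Because both receptors are measured in the same library, their ratio does not depend on the scaling between libraries. Per transcript length, in FPKM, which divides reads by transcript length and library size, the level of Tnfrsf1b was 0.193, 0.161 and 0.183 times that of Tnfrsf1a in the marrow libraries. The ratio was 0.236, 0.276 and 0.28 in blood and 1.28, 0.976 and 1.24 in lung, so the receptors were close to equal in lung and Tnfrsf1a was the more abundant in marrow and blood. The log2 ratio was higher by 0.56 in blood than in marrow and by 2.14 in lung than in blood. Each of these and the lung to marrow difference of 2.70 gave p = 0.1 in an exact two-sided permutation test, the smallest p that 3 against 3 libraries allow, and 0.12 after adjustment over 6 tests.

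Cd40 (Entrez 21939, chr2:165055636-165071654), a receptor of B cells and other antigen-presenting cells, was scarce. It measured 1.10, 1.53 and 2.22 CPM in marrow, 6.65, 6.40 and 1.11 in blood and 7.03, 6.38 and 1.37 in lung. Replicates 1 and 2 of blood and lung lay above all of marrow, and replicate 3 of both lay within the range of marrow. The log2 difference from marrow was 1.55 (SE 0.75, adjusted p = 0.180) in blood and 1.61 (SE 0.75, adjusted p = 0.122) in lung. Without replicate 3 of every tissue it was 2.31 (adjusted p = 7.08e-04) and 2.32 (adjusted p = 3.06e-04). The 8 B cell markers were also low in replicate 3 of blood and lung, with a summed level of 447, 427 and 71.3 CPM in blood and 475, 426 and 49.2 in lung, none of them at 0 in any library. In marrow they summed to 107, 61.2 and 30.2, opposite to the order of Cd40 there. Markers of dendritic cells summed to 156, 86.5 and 119 CPM in marrow, 838, 862 and 140 in blood and 1790, 1353 and 324 in lung, with Siglech at 0 in replicate 3 of blood and lung and Xcr1 at 0 in all 3 marrow libraries and in blood replicates 2 and 3. The part of these cells in the Cd40 values was not tested.

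**Figure D2:**
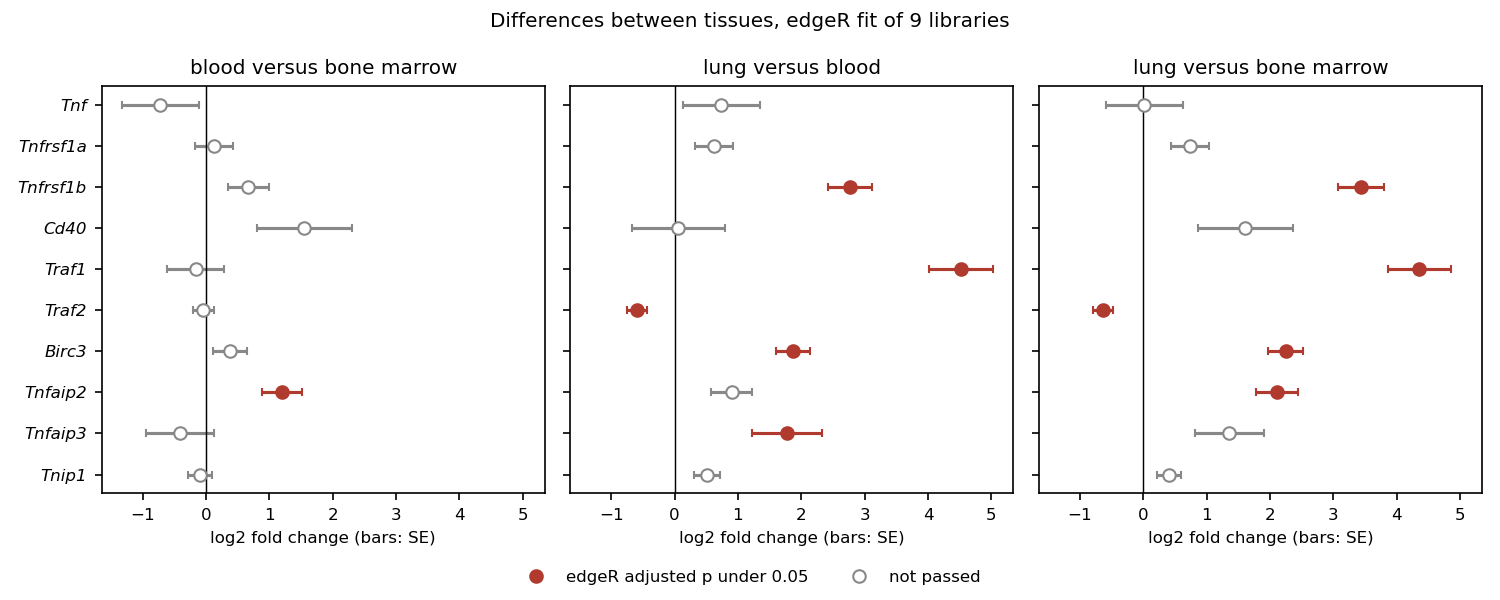
Log2 difference of each gene between 2 tissues, with bars of 1 SE, for blood against marrow, lung against blood and lung against marrow. Tnfrsf1b, Traf1 and Birc3 stand at 1.87 to 4.52 in both lung comparisons, and Traf2 lies below 0 in both.

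Traf1 (Entrez 22029, chr2:34941750-34961772), an adaptor that pairs with Traf2 and has no ligase domain of its own, showed the largest difference among the 10 genes. It measured 7.53, 5.92 and 3.53 CPM in marrow, 7.46, 5.65 and 2.11 in blood and 89.8, 98.8 and 161 in lung. Marrow and blood overlapped and the lowest lung library was far above the highest of either. The mean in lung was 23.0 times that in blood (log2 4.52, SE 0.51, adjusted p = 5.82e-04) and 20.6 times that in marrow (log2 4.36, SE 0.50, adjusted p = 2.55e-04). Blood against marrow was -0.16 (SE 0.45, adjusted p = 0.846).

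Traf2 (Entrez 22030, chr2:25517982-25546940), the adaptor that recruits Birc2 and Birc3, fell in lung. It measured 21.1, 27.5 and 30.1 CPM in marrow, 25.9, 24.2 and 26.6 in blood and 19.0, 14.7 and 17.2 in lung. All lung libraries lay below all others, by a small margin against the lowest marrow library. The log2 difference was -0.59 (SE 0.16, adjusted p = 0.0241) against blood and -0.63 (SE 0.16, adjusted p = 0.0147) against marrow. Both calls depend on the scaling: with upper-quartile scaling they were -0.42 (adjusted p = 0.065) and -0.30 (adjusted p = 0.14). Against blood the difference was -0.49 with DESeq2 size factors (adjusted p = 0.0807) and with the DESeq2 test (adjusted p = 0.0634). It was -0.59 (adjusted p = 0.0524) with no filter on low counts and -0.51 (adjusted p = 0.053) with at least 1 CPM in 3 libraries. The call against blood was also lost without any 1 blood library or lung replicate 2 (adjusted p = 0.0608 to 0.114), and that against marrow without marrow replicate 2 or 3, blood replicate 1 or 2, or lung replicate 2 (adjusted p = 0.0525 to 0.0624). Per length, the Traf1 to Traf2 ratio was 0.283, 0.172 and 0.0946 in marrow, 0.229, 0.187 and 0.0636 in blood and 3.79, 5.41 and 7.56 in lung. Traf2 was thus the more abundant in marrow and blood and Traf1 in lung. The log2 ratio differed by 5.26 between lung and blood and by 5.01 between lung and marrow, with p = 0.1 in an exact permutation test in each case (0.12 adjusted). Blood against marrow gave -0.25 with an exact permutation p of 0.7. The Traf1 counts differ between the deposited sources: the Traf1 to Traf2 ratio of reads, not divided by length, was 0.288, 0.234 and 0.0793 in blood and 4.72, 6.73 and 9.37 in lung in the table, and 0.595, 0.415 and 0.105 in blood and 6.67, 9.54 and 13.2 in lung by RSEM, another deposited quantification.

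Birc3 (Entrez 11796, chr9:7848701-7873170), the ubiquitin ligase also called cIAP2, rose in lung. It measured 190, 138 and 186 CPM in marrow, 268, 190 and 210 in blood and 603, 716 and 1127 in lung. Lung lay above all others, and blood lay only just above marrow. The mean was 3.66 times that in blood (log2 1.87, SE 0.27, adjusted p = 0.00177) and 4.76 times that in marrow (log2 2.25, SE 0.28, adjusted p = 3.52e-04). Blood against marrow was 0.38 (SE 0.27, adjusted p = 0.358).

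**Figure D3:**
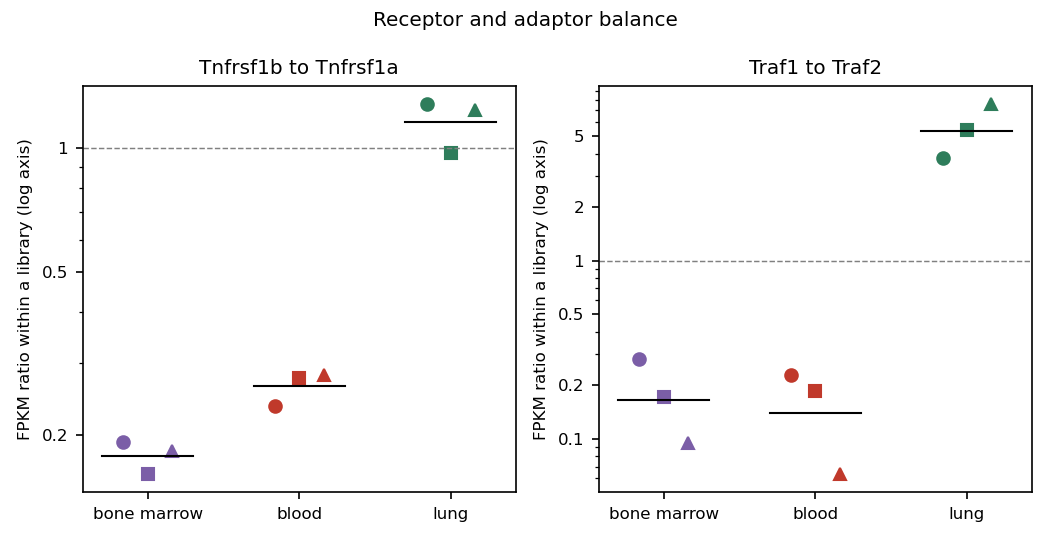
Ratio of Tnfrsf1b to Tnfrsf1a and of Traf1 to Traf2 (FPKM over FPKM, log axis) in each library, with the geometric mean as a line. The receptor ratio is near 1 in lung and 0.161 to 0.28 elsewhere, and the Traf1 to Traf2 ratio is 3.79 to 7.56 in lung and at most 0.283 elsewhere.

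The lung libraries held marker transcripts of other cells. The summed markers of macrophages, fibroblasts, alveolar epithelium and endothelium were lowest in lung replicate 3, where Tnfrsf1b, Traf1 and Birc3 were highest in CPM. The neutrophil marker sum (35170, 36581 and 64229 CPM in lung) and Tnfrsf1a were also highest in that lung library. In FPKM, without TMM scaling, the lung libraries lay closer together. Traf1 was then at 27.1, 28.7 and 32.4, Birc3 at 246, 281 and 306 and Tnfrsf1b at 542, 549 and 750 in lung. The monocyte sum was 645, 720 and 657 CPM and the platelet sum 47.5, 43.2 and 55.1. Single monocyte markers went both ways. In lung replicate 3 Csf1r, Treml4 and Ly6c2 were highest (Csf1r 242, 307 and 475 CPM in lung). Fn1, Klf4, Ace, Ccr2 and Cx3cr1 were lowest there (Fn1 192, 167 and 13.0). The platelet sum was mostly Itgb3, at 35.8, 29.9 and 45.1 CPM, and Gp9 and Gp1ba were at 0 in lung replicate 3. Macrophage markers summed to 1077, 1282 and 296 CPM in lung replicates 1, 2 and 3, and 8 of 10 rose in lung against blood. Fibroblast markers summed to 1653, 1342 and 96.7, alveolar epithelial markers to 903, 285 and 76.7, and endothelial markers to 103, 71.8 and 27.9. In blood the macrophage sum was 208 to 240 CPM, with Ear1 at 0 in all 3 libraries, and the fibroblast sum was 7.16 to 42.4. In marrow the macrophage sum was 998, 864 and 1162 CPM, and marrow replicate 3 had more of the fibroblast (161) and alveolar (90.8) markers than lung replicate 3. Most of the marrow macrophage sum was Chil3, at 934, 800 and 1082 CPM, against 787, 926 and 71.3 in lung. The markers C1qa, C1qb, C1qc, Mrc1, Mertk and Siglecf were lower in every marrow library than in every lung library. Chil3, Adgre1, Marco and Ear1 overlapped. Among the lung libraries Adgre1 and Siglecf were highest in replicate 3 and the other macrophage markers lowest. The alveolar sum was 14.9 and 19.4 in the other marrow libraries and 23.1 to 37.7 in blood, and the endothelial sum was 20.2 to 21.4 in marrow and 23.1 to 41.9 in blood. Replicate 3 had the lowest of the 3 lung values in each of these 4 sums, and of all 9 libraries it had the highest Tnfrsf1b, Traf1, Birc3 and Tnfaip2. Without replicate 3 of every tissue, lung against blood was 2.48 for Tnfrsf1b, 3.81 for Traf1 and 1.49 for Birc3, and each still passed the test. Lung against marrow was then 3.18 for Tnfrsf1b, 3.79 for Traf1, 1.99 for Birc3, 1.85 for Tnfaip2 and -0.56 for Traf2, and these passed as well. The part of the other cells in these differences was not tested beyond these values.

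Tnfaip2 (Entrez 21928, chr12:111442661-111455018), a TNF-induced gene linked to exocytosis and membrane nanotubes, had the highest mean FPKM of the 10 in every tissue. It measured 1147, 1115 and 1491 CPM in marrow, 2713, 2570 and 3365 in blood and 3477, 4796 and 7895 in lung. The tissues did not overlap and their order was marrow, blood, lung. It rose by log2 1.20 (SE 0.32, adjusted p = 0.0276) from marrow to blood and was 4.31 times higher in lung than in marrow (log2 2.11, SE 0.33, adjusted p = 0.00123). Lung against blood was 0.90 (SE 0.32, adjusted p = 0.0626), and with the replicate block 0.84 with an adjusted p of 0.017. Without replicate 3 of every tissue it was 0.61 (adjusted p = 0.0455). The call from marrow to blood was lost when any 1 marrow or blood library was left out, with adjusted p-values of 0.0667 to 0.137.

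Tnfaip3 (Entrez 21929, chr10:19000910-19015410), the ubiquitin-editing brake also called A20, rose in lung against blood. It measured 683, 336 and 635 CPM in marrow, 611, 469 and 165 in blood and 682, 2084 and 1491 in lung. Lung replicate 1 was at the level of the highest marrow library, and the other lung libraries were above all others. Lung against blood was 1.77 (SE 0.55, adjusted p = 0.039) and lung against marrow 1.36 (SE 0.54, adjusted p = 0.076). The first call was lost with the replicate block (1.85, adjusted p = 0.075) and in a fit of blood and lung alone (1.78, adjusted p = 0.0774). It was also lost without marrow replicate 1 or 3, blood replicate 2 or 3, or lung replicate 2 or 3, with 1.42 (adjusted p = 0.11) without blood replicate 3 and 1.37 (adjusted p = 0.13) without lung replicate 2. Without replicate 3 of every tissue, lung against blood was 1.32 (adjusted p = 0.138) and lung against marrow 1.42 (adjusted p = 0.102).

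Tnip1 (Entrez 57783, chr11:54910787-54962940), a ubiquitin-binding partner of Tnfaip3, varied little. It measured 85.3, 97.6 and 111 CPM in marrow, 92.1, 84.0 and 99.3 in blood and 124, 102 and 167 in lung. Marrow and blood overlapped, and the lung libraries lay just above those of blood. Lung against blood was 0.51 (SE 0.20, adjusted p = 0.081), and 0.49 with an adjusted p of 0.031 with the replicate block. It was 0.32 (adjusted p = 0.133) without replicate 3 of every tissue.

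Per transcript length the order of the 10 genes changed between tissues. In marrow the mean FPKM was 293.6 for Tnfaip2, 279 for Tnfrsf1a, 106 for Tnfaip3, 63.8 for Tnf, 51.4 for Birc3 and 50.2 for Tnfrsf1b, while Traf2 was at 7.21, Traf1 at 1.28 and Cd40 at 0.775. In lung Tnfaip2 was at 1430 FPKM, Tnfrsf1b at 614, Tnfrsf1a at 530, Tnfaip3 at 319 and Birc3 at 278, and Traf1, at 29.4, was above Traf2, at 5.59. Tnfrsf1b moved from rank 6 in marrow to rank 4 in blood and rank 2 in lung. The neighbours Tnfrsf1b and Tnfrsf1a did not keep 1 order in lung, where their ratio lay on both sides of 1 in the 3 libraries.

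Genes were ranked by how closely their log2 CPM profile over the 9 libraries, after removing each gene's own mean, followed that of Tnf and of Traf1, as the root mean square of the differences over 8446 genes. The genes closest to Traf1 were Eprs (0.30), an aminoacyl-tRNA synthetase, Nr4a2 (0.32), an orphan nuclear receptor, Nfkbie (0.36), an inhibitor of NF-kB, Nol10 (0.38) and Isy1 (0.39), against a median of 2.17 over all genes. All 5 were low in marrow and blood and high in lung, for example Nfkbie at 32.3 to 42.4 CPM outside lung and 576, 776 and 1081 in lung. Only genes with a mean of at least 5 CPM in some tissue, without predicted genes, were ranked, which left out Cd40. Among the other members of the 10 genes, Tnfrsf1b was the closest to Traf1 (0.89, rank 85), followed by Birc3 (1.15, rank 160). The genes closest to Tnf were Pnp2 (0.34), Phlda1 (0.44), Hspa13 (0.45), Nifk (0.47) and Ltv1 (0.47), with a median of 1.08 over all genes and Tnfaip3 at rank 110 (0.71). These 5 shared the low value of blood replicate 3, for example Phlda1 at 49.1, 27.9 and 10.2 CPM in blood and Nifk at 4.82, 4.10 and 1.22. The counts of Pnp2, a near copy of Pnp, are uncertain: lung against blood was 0.76 in the table and -0.03 by RSEM. All points share the 9 libraries, and the likeness is a description.

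**Figure D4:**
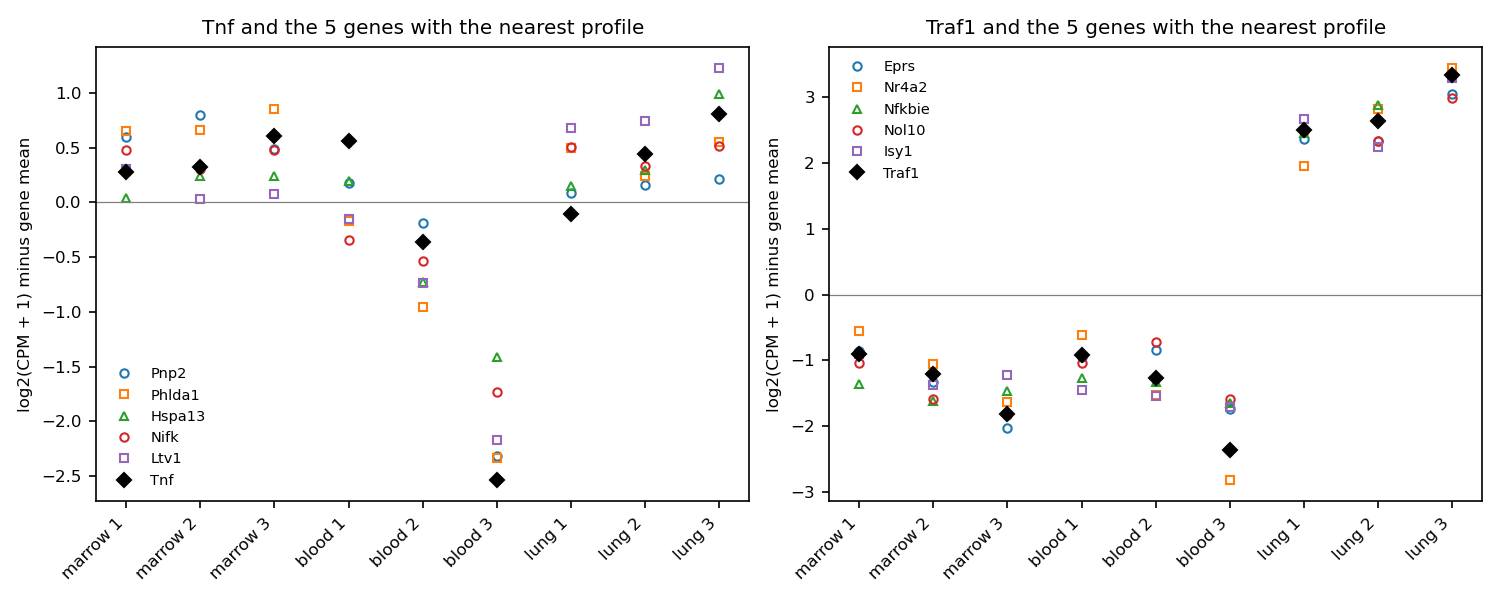
Log2 CPM of Traf1 and Tnf and of the 5 genes closest to each, centred on each gene's own mean, in the 9 libraries. The profiles of the Traf1 group step up in the 3 lung libraries, and those of the Tnf group drop in blood replicate 3.

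The wider pathway was described with 6 lists holding 109 genes, not all of which were tested. Tested were 13 ligands, 21 receptors, 26 adaptors, ligases and kinases and 16 deubiquitinases and ubiquitin-binding brakes. The 10 genes of the death branch and 15 for TNF shedding and Tnf mRNA control were tested as well. Over all genes tested, 21.4% passed from marrow to blood, 28.9% from blood to lung and 38.2% from marrow to lung. Of the listed genes 17, 43 and 45 passed in the same order. These counts are unstable: leaving out 1 library gave 7 to 28, 21 to 52 and 30 to 62, and the replicate block gave 30 from marrow to blood. From marrow to blood 7 passed without blood replicate 2, 8 without marrow replicate 2, blood replicate 1 or blood replicate 3, 9 without marrow replicate 3, 10 without marrow replicate 1, 11 without lung replicate 2 and 28 without lung replicate 3. From blood to lung 25, 22 and 21 passed without blood replicate 1, 2 and 3. The differences of single genes named by size in these lists number 48. They were picked from these same libraries as past the threshold and without overlap, which all but fixed their sign in any subset. Without replicate 3 of every tissue all 48 kept their sign, which is therefore no separate support. In that fit 46 passed, all but Zc3h12a from blood to lung (0.71, adjusted p = 0.114) and Sppl2b from marrow to blood (0.44, adjusted p = 0.147).

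Of the 13 TNF superfamily ligands tested, 2 rose and 1 fell from blood to lung, where 13.2% of all genes rose and 15.7% fell. Tnfsf9, the ligand of 4-1BB, rose from 1.58 to 7.93 CPM (log2 2.32, SE 0.48, adjusted p = 0.00762). It measured 12.2, 7.27 and 4.27 CPM in lung, in the same order of libraries as the fibroblast, alveolar epithelial and endothelial markers, whose part was not tested, and gave 2.64 (adjusted p = 0.00162) without replicate 3 of every tissue. Ltb, which forms lymphotoxin with Lta, fell by 1.3 on the log2 scale (SE 0.20, adjusted p = 0.00232). From marrow to blood 1 of the 13 rose and 1 fell, where 8.34% of all genes rose and 13.1% fell. Tnfsf14, or LIGHT, rose by 1.42 (SE 0.29, adjusted p = 0.00877), and Tnfsf13b, the B cell survival factor BAFF, fell by 1.72 (SE 0.23, adjusted p = 0.00113). The Tnfsf14 call was lost without marrow replicate 2 (1.37, adjusted p = 0.0504) or blood replicate 3 (1.33, adjusted p = 0.0582). The list's median was 0.32 from marrow to blood and 1.15 from blood to lung, against -0.05 and 0.05 over all genes.

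Of the 21 receptors tested, 3 rose and 3 fell from blood to lung, a share near the 28.9% of all genes that passed. Relt fell from 272 to 54.7 CPM (log2 -2.31, SE 0.23, adjusted p = 3.95e-04) after it had risen from marrow to blood (log2 1.25, adjusted p = 0.00515). Ltbr, the lymphotoxin beta receptor, fell by 1.33 (SE 0.24, adjusted p = 0.00401), and Tnfrsf26 rose by 1.68 (SE 0.27, adjusted p = 0.00279). Tnfrsf10b, the death receptor for TRAIL, fell from 8.97 CPM in marrow to 1.11 in blood (log2 -3.01, SE 0.33, adjusted p = 4.07e-04). The median of the list was 0.25 from blood to lung.

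Among the 26 adaptors, ligases and kinases, 4 rose and 9 fell from blood to lung, where 13.2% of all genes rose and 15.7% fell. The median was -0.33, against 0.05 over all genes. Traf4, another adaptor of the TRAF family, was the riser with the largest difference: it measured 6.4, 5.3 and 3.2 CPM in blood and 43.3, 36.6 and 45.6 in lung (log2 3.07, SE 0.25, adjusted p = 2.27e-04). The kinase Tbk1 rose by 1.27 (adjusted p = 0.00482) and its partner Tank by 1.33 (adjusted p = 0.00167). Tank had fallen by 1.26 (adjusted p = 0.0022) from marrow to blood, and lung against marrow was 0.07 (adjusted p = 0.792). The Tbk1 call was lost without blood replicate 1 (1.20, adjusted p = 0.0518). The Tank call from marrow to blood was lost without blood replicate 2 (-1.14, adjusted p = 0.0548). From marrow to blood Map3k8, the kinase that relays TNF signals to ERK, rose by 1.05 (adjusted p = 0.00229).

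Of the 16 deubiquitinases and ubiquitin-binding brakes, 3 rose and 5 fell from blood to lung, where 28.9% of all genes passed, and 6 rose and 4 fell from marrow to lung, where 38.2% passed. Optn, a ubiquitin-binding relative of the IkB kinase subunit Ikbkg, rose by 2.38 (SE 0.30, adjusted p = 8.65e-04) from blood to lung, and Tnfaip8l2 fell by 2.32 (SE 0.33, adjusted p = 0.00146). Nfkbia, which holds NF-kB in the cytoplasm, measured 744 to 1183 CPM in marrow and 2758 to 3904 in lung (log2 1.71, SE 0.43, adjusted p = 0.0132). Without marrow replicate 2 it gave 1.52 (adjusted p = 0.0667). Tnip2, a relative of Tnip1, rose by 2.08 (SE 0.15, adjusted p = 5.48e-05) from marrow to blood.

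In the death branch of Tnfrsf1a, 1 of 10 genes rose and 3 fell from blood to lung, where 28.9% of all genes passed, and 1 rose and 5 fell from marrow to lung, where 38.2% passed. The median from marrow to lung was -0.52, against 0.06 over all genes. The necroptosis kinase Ripk3 rose by 1.18 from blood to lung (SE 0.31, adjusted p = 0.0197). That call was lost without blood replicate 2 (1.14, adjusted p = 0.0649), blood replicate 3 (0.92, adjusted p = 0.0503) or lung replicate 1 (1.13, adjusted p = 0.0588), and in the fit of blood and lung alone (1.19, adjusted p = 0.0537). Bid, which carries the caspase-8 signal to mitochondria, fell by 1.80 from blood to lung (SE 0.26, adjusted p = 0.00168). Of 15 genes for TNF shedding and Tnf mRNA control, 2 rose and 7 fell from blood to lung, where 13.2% of all genes rose and 15.7% fell. Mapkapk2, the kinase that stabilises Tnf mRNA, rose from 277 to 1599 CPM (log2 2.53, SE 0.34, adjusted p = 0.00115), and Frmd8, a cofactor of the Tnf sheddase, fell by 1.6 (SE 0.20, adjusted p = 9.02e-04). Timp3, an inhibitor of that sheddase, rose by 8.24 (SE 1.68, adjusted p = 0.00764), and measured 111, 51.8 and 5.9 CPM in lung, in the same order of libraries as the fibroblast markers, whose part was not tested. With limma-voom the Timp3 difference was 8.64 with an adjusted p of 0.275.

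Blood and lung libraries were also deposited as RSEM expected counts, and the series table holds about 2 times as many reads per gene at the median of 8900 genes. Most of the 10 genes lay at that ratio, but Tnfaip3 had ratios of 1.13, 1.18 and 1.93 in blood and 0.937, 1.94 and 1.17 in lung, and Traf1 had 1.01, 1.16 and 1.55 in blood and 1.44, 1.44 and 1.41 in lung. A ratio under 1.6 in some library occurred in 17.1% of the 8900 genes. From the RSEM counts alone, Tnfaip3 gave 24837, 22916 and 3775 in blood and 40083, 53789 and 51384 in lung. The series table holds 37563, 104560 and 60046 reads in lung, in the same order of libraries but with a wider spread. Lung against blood by RSEM was 1.62 for Tnfaip3 (adjusted p = 0.11), 4.20 for Traf1 (adjusted p = 0.0066), 2.82 for Tnfrsf1b (adjusted p = 0.0047) and 1.87 for Birc3 (adjusted p = 0.0071). Traf2, which fell from blood to lung in the series table, did not pass by RSEM. The marrow libraries were not analysed in this unit, and the cause of the unequal ratios was not tested.

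**Figure D5:**
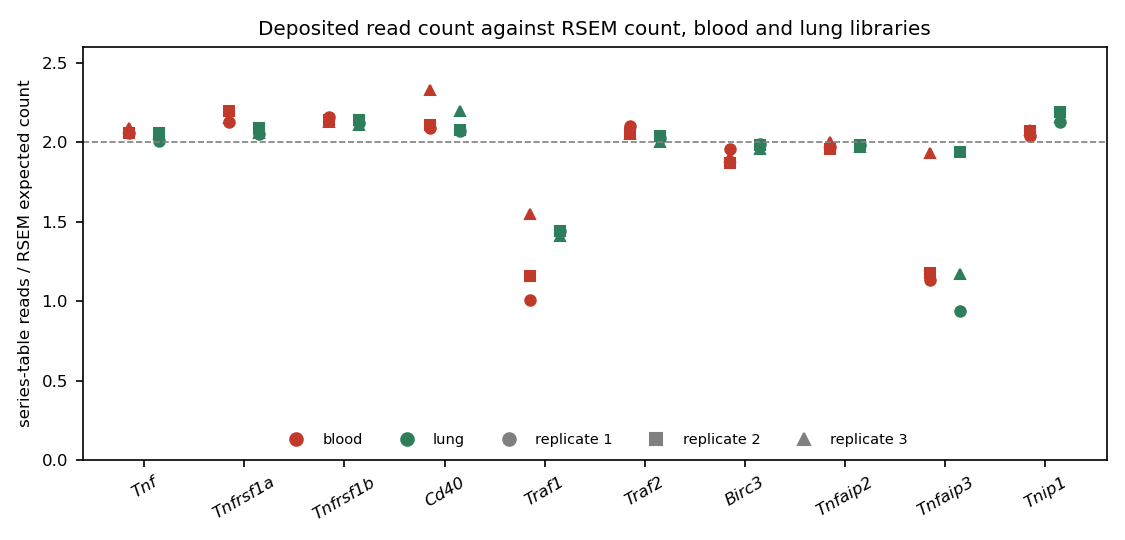
Ratio of reads in the series table to RSEM expected counts for each of the 10 genes in the 6 blood and lung libraries, with the median of all genes marked. Tnfaip3 and Traf1 lie below the median in most libraries, and the other genes lie near it.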

How the data were processed

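Cells were sorted with a FACS Aria III, and RNA was prepared with a TRIzol-type reagent and a TruSeq mRNA kit, named as both standard and stranded, per the labels' protocols. The submitters' processing notes name Bowtie2, STAR, StringTie 2.1.3b, RSEM, DESeq2 and mm10, without the role of each tool. The deposited series table holds read counts and FPKM for each RefSeq transcript, per the file headers. The counts are whole numbers and not normalized, although the name of the table says so. The deposited bone marrow files repeat these counts in all 36780 rows, and the deposited blood and lung files hold RSEM expected counts, FPKM and TPM, per the file headers. TPM was not used further. Columns are numbered 1 higher than the sample titles, and the titles' replicate numbers are used here.

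Counts were summed by Entrez gene, and gene positions are the outermost transcript ends in mm10. Tests used edgeR 4.0.16 (robust quasi-likelihood, TMM, filterByExpr) on all 9 libraries, with Benjamini-Hochberg adjustment over 13510 genes, and the procedure was tested on simulated data. Expected counts were rounded. Alternatives used limma 3.58.1 and DESeq2 1.42.0, other scalings and filters, log2(FPKM + 1) and log2(FPKM + 0.1), a replicate block, the 2 tissues compared alone and each library left out. Genes of the pathway lists are named by size: at most the 3 with the largest difference per list and comparison, past the threshold, at 5 CPM or more and without overlap.

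The labels call the libraries biological replicates and name no shared animal or day. In the data, the deviations from the tissue mean of same-numbered libraries correlated at 0.106 to 0.56 in all 9 pairs, and those of other pairs at -0.593 to 0.504, which is a hint from the data and not from the design. The ranges overlap. Taking deviations from the tissue mean also ties the values together, so that positive same-numbered pairs draw the other pairs towards negative values. The genes and lists were chosen with earlier results of these data known.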

Additional observations from a re-analysis of the deposited data

How the results depend on the processing

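Tnfrsf1b, Traf1 and Birc3 passed in all 21 alternatives for lung against blood and all 20 for lung against marrow, as did Tnfaip2 in all 20 for lung against marrow. The other calls were lost in some: Tnfaip2 from marrow to blood passed in 12 of 20, Tnfaip3 from blood to lung in 11 of 21, and Traf2 in 11 of 21 against blood and 8 of 20 against marrow. From marrow to blood, 0 of the 10 genes passed with DESeq2 size factors and with no filter on low counts, 3 with limma on log2(FPKM + 1) and on log2(FPKM + 0.1), 2 in a fit of the 2 tissues alone and 3 without replicate 3 of every tissue, an alternative chosen after seeing the data. From blood to lung 3 passed with RSEM expected counts, and from marrow to lung 8 with the DESeq2 test. With the replicate block, 2, 6 and 6 of the 10 genes passed in the order marrow to blood, blood to lung and marrow to lung. It changed no call of the 10 genes other than those given beside the results. Leaving out 1 library gave 0 to 1, 3 to 6 and 4 to 7 of the 10 genes, with 3 from blood to lung without blood replicate 2 or blood replicate 3. Over all genes tested it gave 1236 to 3965, 1922 to 5852 and 3258 to 6984 calls, where all libraries gave 2892, 3900 and 5158.

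Some differences that had not passed in the comparison concerned changed sign. From marrow to blood, Traf2 was 0.12 with upper-quartile scaling, 0.06 with no filter, 0.05 with at least 1 CPM in 3 libraries, 0.30 and 0.33 on the FPKM scales, 0.12 with the 2 tissues alone and 0.05 without replicate 3 of every tissue (-0.19 to 0.11 leaving out 1 library). Tnip1 was 0.06 with upper-quartile scaling, 0.26 and 0.27 on the FPKM scales and 0.06 with the 2 tissues alone (-0.21 to 0.08). Traf1 was 0.08 and 0.09 on the FPKM scales and 0.01 with the 2 tissues alone (-0.47 to 0.25), and Tnfaip3 was 0.10 without replicate 3 of every tissue (-0.72 to 0.03). From blood to lung Cd40 was -0.01 and -0.03 on the FPKM scales (-0.45 to 0.47) and Tnf -0.01 without replicate 3 of every tissue. From marrow to lung Tnf was -0.01 with limma-voom and -0.13 without replicate 3 of every tissue (-0.26 to 0.23). The cause was not tested. Upper-quartile scaling shifted the median of all genes by 0.15, 0.16 and 0.32 in the order above. The share of calls that were higher was 39.0%, 45.6% and 40.9% as reported, 52.6%, 55.9% and 59.3% with upper-quartile scaling, 56.9% and 52.0% in the lung comparisons with DESeq2 size factors, and 67.1% and 32.4% for marrow to blood and blood to lung with log2(FPKM + 1).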

Other observations

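The table also divides the reads of Tnfaip3, Traf1 and other genes between annotated transcripts, as estimated by the authors' tools. For Tnfaip3 the transcript of 4422 bases took 63.4%, 60.7% and 58.7% of the reads in marrow, 62.1%, 69.5% and 86.8% in blood and 63.5%, 92.6% and 76.0% in lung. It starts upstream of the transcript of 4337 bases, at the start whose window holds the NF-kB decamer. The highest share was in lung replicate 2, which also had the highest Tnfaip3 level, and the second highest was in blood replicate 3, which had the lowest. These are also the libraries where the Tnfaip3 reads were 1.94 and 1.93 times the RSEM count, against 0.937 to 1.18 in the other blood and lung libraries. By RSEM, lung replicates 2 and 3 held 53789 and 51384. The share and the level may thus both depend on how the gene was counted, which was not tested. For Traf1 the transcript of 3833 bases took 98.4%, 56.0% and 0% in marrow, 94.7%, 46.8% and 2.15% in blood and 56.3%, 46.5% and 30.3% in lung. Its share differed more between replicates of marrow and of blood than between the means of the tissues, at few reads outside lung. For Traf2 the transcript of 3044 bases took 65.9% to 85.8% of the reads in all 9 libraries.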
